A study of Mus musculus with 6 samples.

Results

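Notch signaling was read here in uterine RNA through 10 genes, taken by name: the receptors Notch1, Notch2, Notch3 and Notch4, the ligands Jag1, Jag2, Dll1 and Dll4, and the target genes Hes1 and Hey1. Of 45037 probe sets on the array, 19 carried 1 of these symbols and no other, so all 10 genes were measured among 18193. Each gene was represented by its brightest probe set on average, and the others are given beside it. The study compared 6 Affymetrix arrays, where each transcript is read by sets of short probes, from uteri of female mice at 4 weeks of age. The 3 mutant arrays are from Pgr cre/+ Ctnnb1f(ex3)/+ mice, in which Cre driven by Pgr deletes exon 3 of Ctnnb1 in Pgr-expressing cells and so stabilizes β-catenin there. The 3 control arrays are from mice labelled wild type, which the study's methods describe as Pgr cre/+ and Ctnnb1 f(ex3)/+, each carrying 1 of the alleles. Since the methods speak of pooled RNA from 3 mice per genotype, arrays of 1 group may not stand for separate animals. The p-values then cover no more than the spread among the arrays, which could be technical. Control arrays 1 to 3 had mean log2 intensities of 6.53, 4.61 and 6.63 over 19 cell cycle genes. Over 10 adipocyte markers their means were 6.11, 6.40 and 4.85. Whether the arrays hold separate animals was not tested.

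A Notch receptor is a membrane protein that meets a ligand, of the Jagged or the Delta-like family, on the neighboring cell. Ligand binding exposes the receptor to cleavage by ADAM proteases and then by γ-secretase, and the freed intracellular domain joins the DNA-binding protein Rbpj in the nucleus to switch on genes of the Hes and Hey families, which encode transcriptional repressors. Notch1, Notch4 and Dll4 are known from endothelium, Notch3 from the mural cells around vessels, and Jag1 is induced by β-catenin in other tissues.

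In the mutant uterus Notch1 and Jag1 were lower and Hey1 was higher than in the control, and the other 7 genes did not pass the test. Values are log2 of the deposited intensity, so a difference of 1 is a doubling, and a gene was called at an adjusted p under 0.05 from limma after Benjamini-Hochberg adjustment over all 18193 genes. By that rule 12% of all genes were called, 5.61% as higher and 6.36% as lower. Of the 10 Notch genes, 1 was called higher and 2 lower. The median log2 fold change was -0.05 over the 10 genes and -0.01 over all genes, with 5 of the 10 above 0 and 5 below. The groups did not overlap for 6 of the 10, with the mutant arrays below the controls for 4 (17.4% of all genes) and above them for 2 (14.9% of all genes). When calls needed a 1.5-fold change with an unadjusted p under 0.05, 1 of the 10 was higher (4.09% of all genes) and 0 were lower (4.16% of all genes). As these are RNA of whole uterus, fewer cells of a type and less RNA per cell cannot be told apart.

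The stretches before the start of Notch1 and Jag1, the members called lower, and of Rbpj, which carries the signal to DNA and was also lower, are shown for the motifs that bear on this comparison. Capitals mark CAAAG (on the other strand CTTTG), the core bound by the TCF/LEF family, the partners of β-catenin on DNA. Capitals also mark TGGGAA (on the other strand TTCCCA), the core bound by Rbpj. The sequences are RefSeq windows of GRCm38.p6, from 250 bases before the start to 30 after it. Notch1 is at chr2:26503793-26504072 on the minus strand, Jag1 at chr2:137116491-137116770 on the minus strand and Rbpj at chr5:53590096-53590375 on the plus strand.
Notch1: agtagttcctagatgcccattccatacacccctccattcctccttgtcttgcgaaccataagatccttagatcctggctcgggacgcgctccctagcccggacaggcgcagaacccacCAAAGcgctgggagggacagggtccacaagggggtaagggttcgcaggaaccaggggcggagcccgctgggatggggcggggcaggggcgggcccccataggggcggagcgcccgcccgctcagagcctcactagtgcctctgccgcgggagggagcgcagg
Jag1: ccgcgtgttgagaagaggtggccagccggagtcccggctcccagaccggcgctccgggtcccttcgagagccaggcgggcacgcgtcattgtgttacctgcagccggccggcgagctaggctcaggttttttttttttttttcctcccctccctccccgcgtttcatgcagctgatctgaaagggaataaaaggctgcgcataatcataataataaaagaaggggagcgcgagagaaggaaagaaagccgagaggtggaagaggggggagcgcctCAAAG
Rbpj: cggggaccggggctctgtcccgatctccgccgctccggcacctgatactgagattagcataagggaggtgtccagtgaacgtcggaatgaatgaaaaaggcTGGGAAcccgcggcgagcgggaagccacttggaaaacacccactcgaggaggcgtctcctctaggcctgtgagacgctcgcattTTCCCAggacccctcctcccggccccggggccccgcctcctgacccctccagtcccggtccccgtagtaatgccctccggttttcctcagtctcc
CAAAG begins 132 bases before the start of Notch1 and at base 26 after the start of Jag1, and 51.9% of all 32851 windows of this length hold it on either strand. Neither window of these genes holds TGGGAA. That core stands in the printed Rbpj window at 149 bases before the start and, on the other strand, at 65 bases before it, and 23.8% of all windows hold it. Rbpj has a second, overlapping window from a later start, which holds the latter copy alone, 205 bases before that start. Of the 10 members 8 had 9 windows in all, and the target genes Hes1 and Hey1 had none, so neither motif could be looked for there. Among the 9 windows, CAAAG was found in those of Notch1, Notch3 and Jag1 and in 1 of 2 of Dll1, and TGGGAA in none. The motifs do not overlap in these windows, and a match is a description of letters and no measurement of binding.

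**Figure D1:**
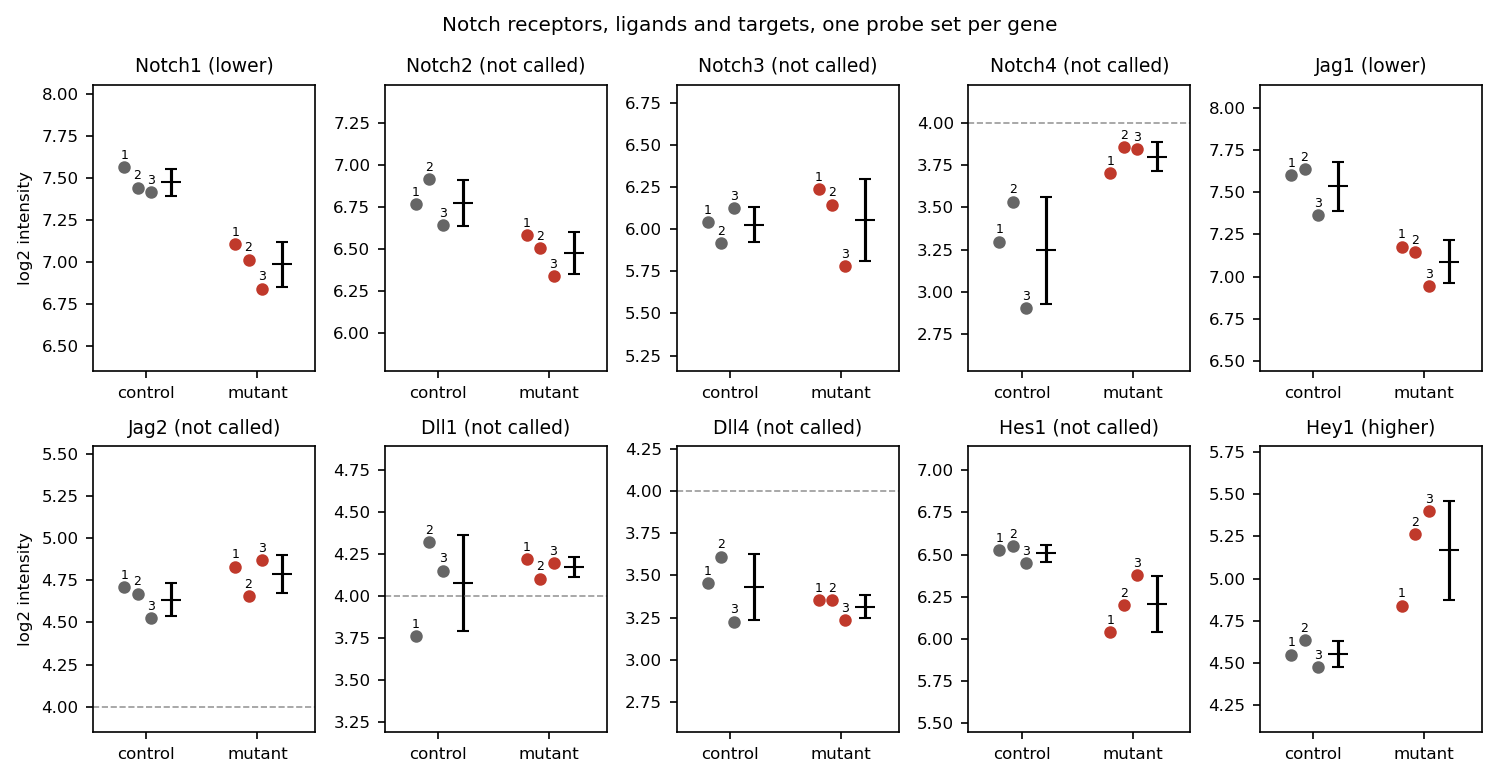
Each panel plots the log2 intensity (y axis) of 1 Notch gene on the 3 control (grey) and 3 mutant (red) arrays, numbered by replicate, with black bars beside them for the mean and SD; every panel spans the same range of log2 units, with a dashed line at an intensity of 16. Mutant arrays lie below all control arrays for Notch1, Notch2, Jag1 and Hes1 and above them for Notch4 and Hey1.

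Among the receptors, Notch1 was the one called. It read 7.57, 7.44 and 7.41 (log2 intensity) on control arrays 1 to 3 and 7.10, 7.02 and 6.84 on mutant arrays 1 to 3. The groups did not overlap, with a gap of 0.31 between the lowest control and the highest mutant array. The log2 fold change of Notch1 was -0.49 with a standard error of 0.10 (limma, adjusted p = 0.0186), which is 0.714 of the control intensity. Leaving out control array 1 put it at -0.44 and ended the call (adjusted p = 0.081). So did leaving out mutant array 2, at -0.50 (adjusted p = 0.0568), or mutant array 3, at -0.41 (adjusted p = 0.0504). The second, dimmer Notch1 probe set had values of 4.92 to 4.95 in the control and 4.69 to 5.01 in the mutant, a log2 fold change of -0.07 (95% interval -0.30 to 0.16), so the probe sets of Notch1 disagree. With the mean of both, the log2 fold change was -0.28 and was not called (adjusted p = 0.0952).

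Notch2, a receptor of wide expression, had log2 intensities of 6.77, 6.91 and 6.64 in the control and 6.58, 6.50 and 6.34 in the mutant arrays. The groups did not overlap, but the gap between them was only 0.06, and the log2 fold change of -0.30 (95% interval -0.54 to -0.06; limma adjusted p = 0.114) did not pass. The other Notch2 probe set lay between 1.91 and 2.09 on all arrays. Notch3 had log2 intensities of 6.04, 5.92 and 6.12 in the control and 6.24, 6.15 and 5.78 in the mutant arrays. Its mutant arrays lay on both sides of the controls, and the log2 fold change was 0.03 (95% interval -0.28 to 0.33; limma adjusted p = 0.929). The suffix of this Notch3 probe set marks probes that can read more than 1 transcript, and the other probe set was at -0.06.

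Notch4 had log2 intensities of 3.30, 3.53 and 2.90 in the control and 3.70, 3.86 and 3.85 in the mutant arrays. Every mutant array lay above every control array, and the log2 fold change was 0.56 (95% interval 0.20 to 0.92; limma adjusted p = 0.0598), which did not pass. All 6 arrays lay below an intensity of 16, a range in which changes may be understated. Without detection calls it is also unknown how far these values stand above background. Control arrays 2 and 3 lay on opposite sides of the control mean. Notch4 passed without control array 2 (0.70, adjusted p = 0.0302) and with array weights, which counted control array 1 most (0.53, adjusted p = 0.0322). It did not pass without any other array (0.39 without control array 3, adjusted p = 0.0897, and up to 0.174 among these). Its other probe sets were dimmer still, at -0.08 and 0.15.

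Among the ligands, Jag1 was called lower and its relative Jag2 was not called. Jag1 read 7.60, 7.64 and 7.37 (log2 intensity) on control arrays 1 to 3 and 7.18, 7.14 and 6.94 on mutant arrays 1 to 3. The groups were 0.19 apart at their nearest arrays, and the log2 fold change was -0.45 with a standard error of 0.11 (limma, adjusted p = 0.0364), or 0.733 of the control intensity. A second Jag1 probe set showed the same direction, with 4.48, 4.52 and 4.27 in the control and 3.94, 3.97 and 4.12 in the mutant arrays. With all probe sets adjusted together both were called (log2 fold changes of -0.45 and -0.41, adjusted p of 0.0444 and 0.0448 from limma). By this rule 6.99% of 44105 probe sets were called. The dimmest Jag1 probe set, below 16 on all arrays, was at -0.03, and with the mean of all 3 the log2 fold change was -0.30 (adjusted p = 0.0912). The Jag1 call was lost on leaving out control replicate 1 (-0.41, adjusted p = 0.132), control replicate 2 (-0.40, adjusted p = 0.103), mutant replicate 1 (-0.49, adjusted p = 0.0502), mutant replicate 2 (-0.47, adjusted p = 0.087) or mutant replicate 3 (-0.37, adjusted p = 0.102).

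Jag2 had log2 intensities of 4.71, 4.67 and 4.53 in the control and 4.83, 4.66 and 4.87 in the mutant arrays, which overlap. The log2 fold change was 0.15 (95% interval -0.07 to 0.37; limma adjusted p = 0.376). The second Jag2 probe set was at 0.38 (95% interval 0.05 to 0.71) and was not called either (adjusted p = 0.186 over all probe sets). Within each array, Jag2 less Jag1 was -2.97 to -2.84 in the control and -2.49 to -2.07 in the mutant arrays, so the ratio of the 2 probe sets was higher in each mutant array, by 0.60 on average. The pair was chosen after its values were seen, so this difference is a description with no test.

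The Delta-like ligands were dim. Dll1 had log2 intensities of 3.76, 4.32 and 4.15 in the control and 4.22, 4.10 and 4.19 in the mutant arrays. The mutant arrays lay inside the range of the controls, and the log2 fold change was 0.09 (95% interval -0.23 to 0.42; limma adjusted p = 0.735). Dll4, the ligand of sprouting vessels, had log2 intensities of 3.46, 3.61 and 3.23 in the control and 3.35, 3.35 and 3.23 in the mutant arrays, all below an intensity of 16. The groups overlap, at a log2 fold change of -0.12 (95% interval -0.38 to 0.14; limma adjusted p = 0.576), and the other Dll4 probe set was at -0.21 (95% interval -0.43 to 0.01).

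**Figure D2:**
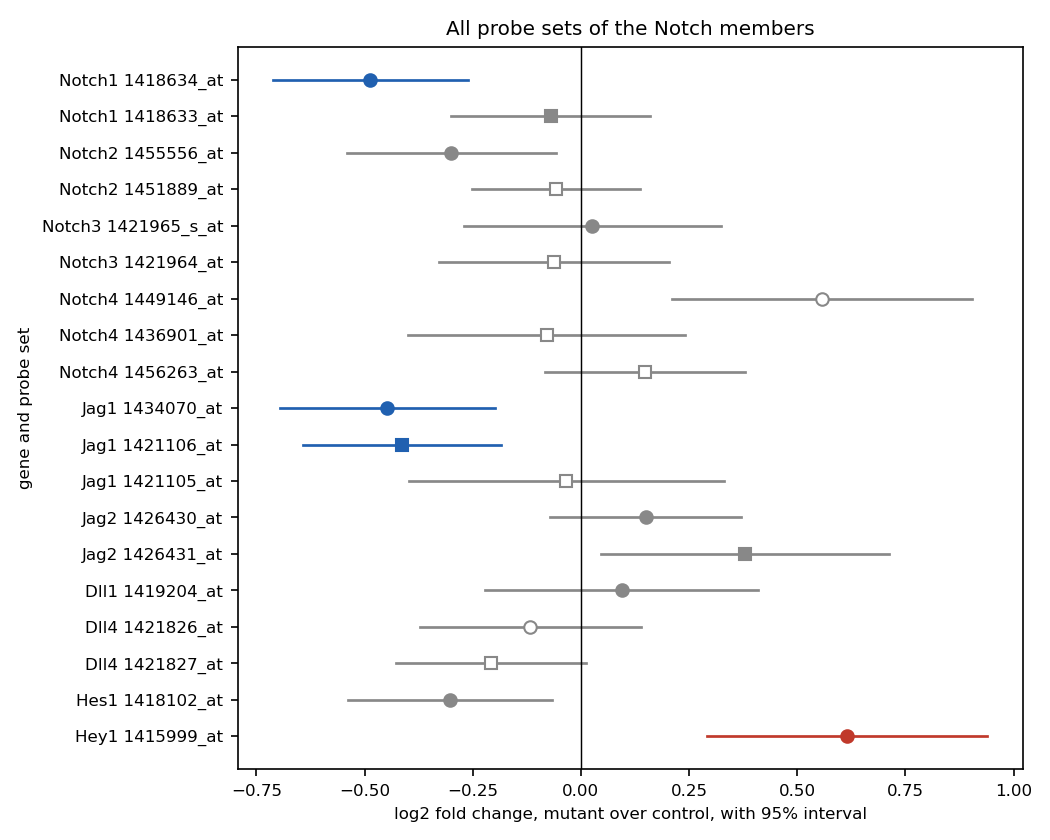
Each of the 19 probe sets is drawn with its 95% interval at the log2 ratio of mutant to control (x axis), circles for the probe set that represents the gene, squares for the others, and open symbols for those below an intensity of 16 on all 6 arrays. Called lower (blue) are 1 probe set of Notch1 and 2 of Jag1, called higher (red) is that of Hey1, and grey ones were not called with all 44105 probe sets adjusted together.

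The target genes Hes1 and Hey1 went to opposite sides of the controls. Hey1, a repressor of the Hey family, read 4.55, 4.63 and 4.48 (log2 intensity) on control arrays 1 to 3 and 4.84, 5.26 and 5.40 on mutant arrays 1 to 3. No mutant array came down to the controls, and mutant replicate 1 was nearest to the controls. The log2 fold change of Hey1 was 0.61 with a standard error of 0.15 (limma, adjusted p = 0.034), or 1.53-fold, read by its only probe set. The call was lost without control replicate 1 (0.61, adjusted p = 0.11), control replicate 2 (0.66, adjusted p = 0.0673), control replicate 3 (0.58, adjusted p = 0.0972), mutant replicate 2 (0.57, adjusted p = 0.119) or mutant replicate 3 (0.50, adjusted p = 0.0862). Without mutant replicate 1 it was at 0.78 (adjusted p = 0.00485).

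Hes1, the repressor of the Hes family that most tissues express, read 6.53, 6.55 and 6.45 (log2 intensity) on control arrays 1 to 3 and 6.04, 6.20 and 6.38 on mutant arrays 1 to 3. The mutant arrays lay below the controls with a gap of 0.07, and mutant replicate 3 was nearest to them. The log2 fold change of -0.30 (95% interval -0.54 to -0.07; limma adjusted p = 0.103) did not pass. Within each array, Hey1 less Hes1 was -1.98, -1.91 and -1.98 in the control and -1.20, -0.93 and -0.98 in the mutant arrays. The mean of this difference was 0.92 higher in the mutant, which is likewise a description with no test, as the pair was chosen after its values were seen.

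**Figure D3:**
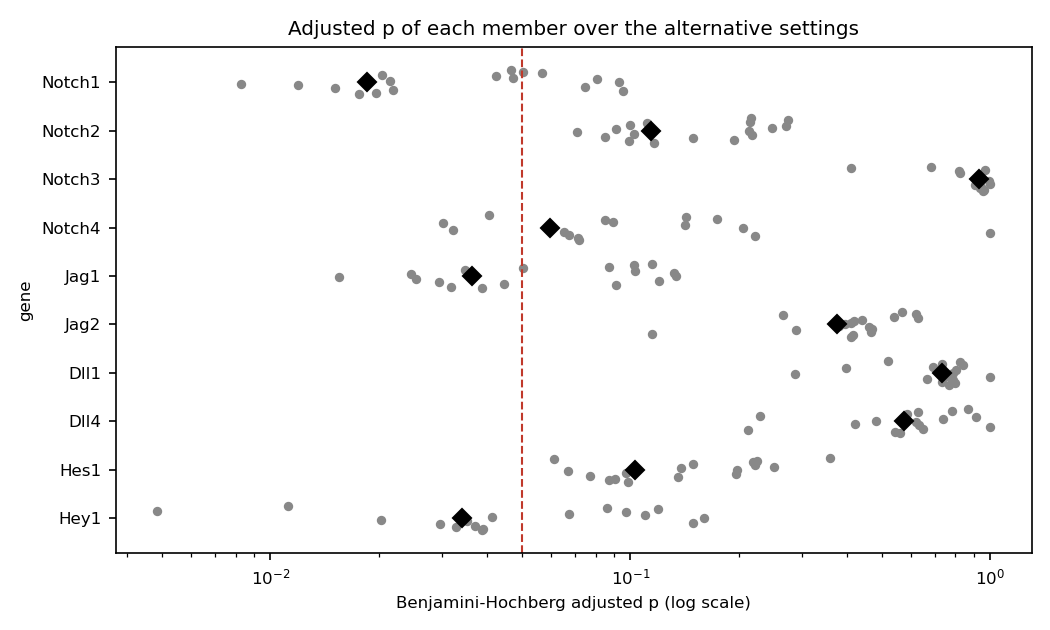
For each Notch gene the black diamond is the adjusted p of the comparison of 3 mutant with 3 control arrays (x axis, log scale), the grey points are its adjusted p under the alternative settings, and the dashed red line marks 0.05. The points of Notch1, Notch4, Jag1 and Hey1 lie on both sides of the line, and those of the other 6 genes lie to its right.

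Of 59 other measured genes of the pathway, 2 were higher in the mutant uterus (5.61% of all genes), 6 were lower (6.36% of all genes) and 51 did not pass the test. Their median log2 fold change was -0.02, and 13 of them lay below an intensity of 16 on all arrays. The 8 measured genes of the nuclear complex and its coactivators held 3 of the lower calls, Rbpj, Snw1 and Kat2b. The 15 measured genes of ligand endocytosis and ubiquitin ligases held another 2, Neurl1a and Dtx3l. None of 8 proteases, 5 glycosyltransferases that modify the receptors or 8 corepressors was called by limma, though Aph1a and the corepressors Spen and Ctbp2 had an unadjusted p under 0.05, at -0.19, -0.23 and -0.25.

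Rbpj read 8.06, 8.35 and 7.99 (log2 intensity) on control arrays 1 to 3 and 7.77, 7.54 and 7.57 on mutant arrays 1 to 3. All mutant arrays lay below all controls, and the log2 fold change of Rbpj was -0.51 with a standard error of 0.12 (limma, adjusted p = 0.0334), or 0.704 of the control intensity. Its other probe sets had the same sign, at -0.29 and -0.31, without being called (adjusted p of 0.141 and 0.0904 over all probe sets). The Rbpj call was lost when control array 1 or 2 or mutant array 2 or 3 was left out (-0.54 to -0.40, with adjusted p from 0.073 to 0.114).

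Snw1, which binds the Notch intracellular domain, was at -0.30 (adjusted p = 0.0492 from limma) and Kat2b, a histone acetyltransferase, at -0.28 (adjusted p = 0.0463). Neurl1a, a ubiquitin ligase that acts on ligands, was at -0.35 (adjusted p = 0.0478) and Dtx3l, of the Deltex family of ubiquitin ligases, at -0.36 (adjusted p = 0.0408). These 4 calls stood close to the threshold, and each was lost on leaving out any 1 array and with all probe sets adjusted together. Without 1 array, the log2 fold changes were -0.34 to -0.27 for Snw1, -0.30 to -0.27 for Kat2b, -0.38 to -0.28 for Neurl1a and -0.39 to -0.29 for Dtx3l. The dimmer probe sets of these genes were not called. That of Dtx3l was at -0.23, and those of Snw1 were at -0.06 and -0.23. Those of Kat2b were at -0.02 and 0.04. Those of Neurl1a were at -0.28, -0.06, -0.06, 0.07 and 0.15. So the probe sets of Kat2b and of Neurl1a differed in sign.

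The larger changes lay at the edge of the pathway. Dner, a transmembrane protein with repeats like those of Delta and Notch that is proposed as a ligand, had log2 intensities of 3.42, 3.62 and 3.21 in the control and 4.97, 4.91 and 5.28 in the mutant arrays. The log2 fold change of Dner was 1.64 with a standard error of 0.14 (limma, adjusted p = 0.000677), or 3.11-fold, and its second probe set was at 1.74 and also called. No single array decided this call, but the methods' t-test did not make it after adjustment, and all control arrays lay below an intensity of 16. Hes6, a Hes family protein known to act against Hes1 rather than as a classical target of Notch, had log2 intensities of 5.31, 5.38 and 5.57 in the control and 6.0, 6.40 and 6.71 in the mutant arrays. The log2 fold change of Hes6 was 0.95 with a standard error of 0.17 (limma, adjusted p = 0.0144), and its second probe set was at 0.76 without a call. The Hes6 call was lost without control replicate 1 or mutant replicate 2 (0.90 to 0.93, with adjusted p from 0.0588 to 0.0647).

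Bhlhe40, a repressor best known from the circadian clock, was listed among the targets and was lower, at -0.61 with a standard error of 0.16 (limma, adjusted p = 0.0446), a call that held only when mutant replicate 3 was the array left out (without each of the others, -0.70 to -0.46 with adjusted p from 0.0586 to 0.139). The other targets fixed for naming were not called. Nrarp, a feedback inhibitor induced by Notch, was at 0.06 (95% interval -0.23 to 0.35), with values of 5.27 to 5.35 in the control and 5.12 to 5.59 in the mutant arrays. Heyl was at -0.13, and Hes5 and Hey2, below an intensity of 16 on all arrays, were at -0.15 and 0.19. Lfng, a glycosyltransferase that sets which ligands a receptor answers to, was equally dim, at 0.14.

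**Figure D4:**
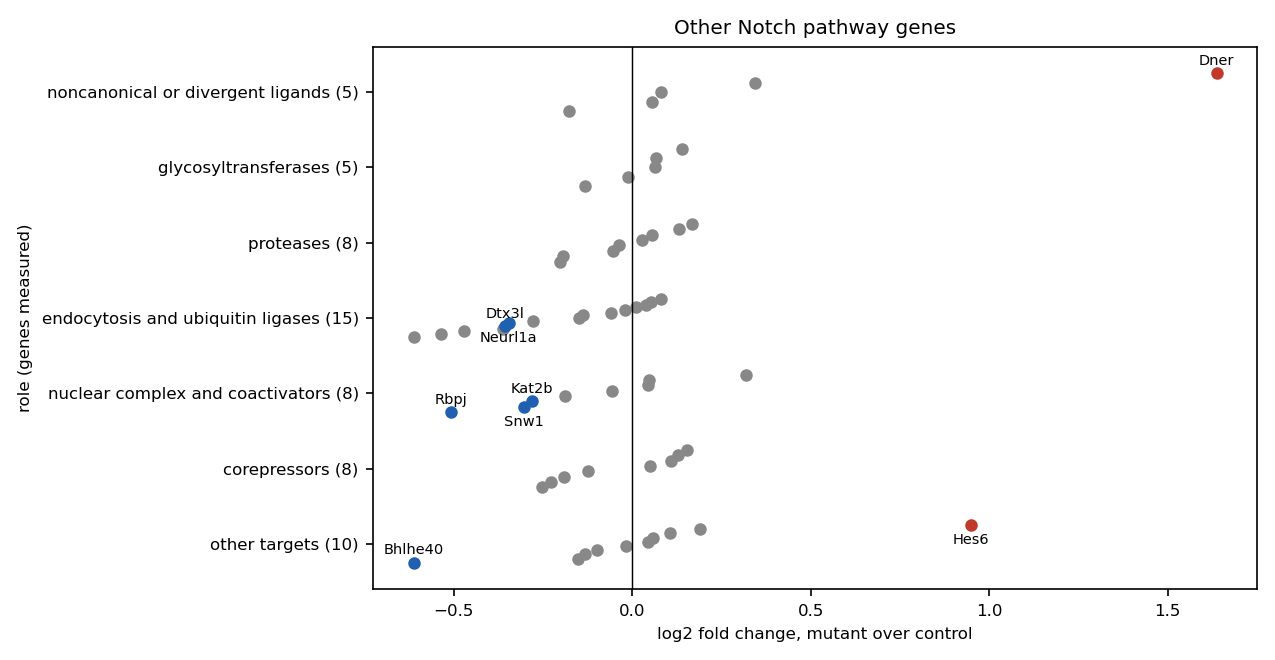
Each point is 1 of 59 other Notch pathway genes at the log2 ratio of mutant to control (x axis), in rows by role with the number of genes measured; red is called higher, blue called lower and grey not called, and the called genes are named. Dner at 1.64 and Hes6 at 0.95 stand apart on the right, and the lower calls lie between -0.61 and -0.28.

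Markers of the cell types in which these genes are known were read on the same arrays, and their part in the results above was not tested. Beside the counts of called markers stand the shares over all genes, 5.61% called higher and 6.36% called lower. Of 12 measured epithelial markers, 4 were lower (Krt18 at -0.80, Ehf at -0.82, Elf3 at -0.85 and Wnt7a at -1.71) and none higher. Krt8 at -0.48 and Cdh1 at -0.28 were not called by limma but had an unadjusted p under 0.05. Epcam at -0.04, Krt7 at 0.14 and Cldn4 at 0.24 were not called. Of the 12 log2 fold changes, 10 were negative and 2 positive. The mean log2 intensity of the 12 was 8.24 to 8.39 in the control and 7.74, 7.64 and 8.14 in mutant replicates 1 to 3 (log2 of the summed intensity 12.38 to 12.60 and 11.90 to 12.39). Mutant replicate 3 was nearest to the controls in these markers and for Hes1, and farthest for Notch1, Jag1 and Hey1. This compares single arrays and was not tested. Of 14 endothelial markers, 1 was higher (Flt1, 0.49) and 1 lower (Tek, -0.85), with means of 6.08 to 6.15 in the control and 5.95 to 6.22 in the mutant and summed levels of 10.29 to 10.41 and 10.25 to 10.49. Robo4 at 0.35, Eng at 0.34, Emcn at 0.29, Vwf at -0.57 and Cdh5 at -0.29 were not called by limma but had an unadjusted p under 0.05. Of 12 mural and smooth muscle markers none was called by limma (Rgs5 at 0.29, Myocd at 0.33, Kcnj8 at -0.51 and Lmod1 at -0.27 had an unadjusted p under 0.05), with means of 8.62 to 8.66 and 8.46 to 8.66 and summed levels of 13.56 to 13.67 and 13.56 to 13.70. Of 10 adipocyte markers 2 were called higher (Cidec and Retn), and on all 10 the mutant arrays read above the controls (14.9% of all genes), with means of 4.85 to 6.40 and 6.98 to 7.55 and summed levels of 9.87 to 12.16 and 12.88 to 13.44. Control array 3 stood apart in these markers, with a mean of 4.85 against 6.11 and 6.40 on the other controls. Of 10 stromal fibroblast markers 1 was higher (Hand2, 1.49) and none was called lower by limma (Pdgfra at -0.33, Lum at -0.31 and Vim at -0.35 had an unadjusted p under 0.05), with means of 10.26 to 10.36 and 10.26 to 10.41 and summed levels of 14.63 to 14.72 and 14.58 to 14.68. Of 10 macrophage markers 4 were higher (C1qa, C1qb, C1qc and Fcgr1), with means of 6.05 to 6.06 and 6.30 to 6.50 and summed levels of 10.03 to 10.12 and 10.26 to 10.45. Cd163 at 0.68 and Mrc1 at 0.23 were not called by limma but had an unadjusted p under 0.05. Adgre1 at 0.19, Csf1r at 0.13, Cd68 at 0.06 and Cd14 at -0.14 were not called, and their groups overlapped.

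The tissue and allele matched their labels as far as could be read. Of 10 genes read to check the tissue, all stood above an intensity of 16 on every array. Pgr, the progesterone receptor, whose gene drives the Cre, ranged from 10.30 to 10.56 in the control and from 9.29 to 9.61 in the mutant arrays and was lower (-0.97, limma adjusted p = 0.0027). All mutant mice carry the cre allele of Pgr, and which control arrays do is not given. The part of that allele in the level of Pgr was not tested. Emx2 and Wnt7a were also lower (-0.62 and -1.71), Hand2 and Foxa2 were higher (1.49 and 1.54), and the other 5, Esr1 among them, were not called. Of the feedback genes that β-catenin induces, 9 of 9 measured were higher in the mutant, among them Axin2 (5.88 to 6.26 in the control and 8.45 to 8.82 in the mutant). The deletion itself was not checked, since the position of the Ctnnb1 probes was not used here. Control replicate 2 stood apart in the mean log2 intensity of 19 cell cycle genes, at 4.61 against 6.39 to 6.80 on the other arrays. Not every gene did so, as Tyms, below an intensity of 16 on all arrays, read 1.85, 1.68 and 1.65 on control arrays 1 to 3. Of the 19 genes 2 were called higher, Mcm2 and Mcm3 (0.57 and 0.94), beside 5.61% of all genes. Mutant replicate 1 was the nearest mutant array to the control mean for Notch1, Notch2, Notch4, Jag1 and Hey1. Without both, an alternative chosen after seeing the data, 2 of the 10 Notch genes were higher (Hey1 and Notch4) and 1 was lower (Notch1).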

How the data were processed

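The intensity values deposited by the authors are linear, with 1 per probe set on each of 6 arrays. The submitters' processing notes name RMA, with version, filters and detection calls not given in the sources used here. Medians of 7.23 to 7.42 show arrays already scaled to each other. Log2 was taken after a floor of 1, which changed 0 values. GEO's platform annotation gave 1 symbol to 34945 probe sets, several to 932 and none to 9160. Intensities ran from 1.99 to 10886.56, and 62.3 to 62.6% of probe sets lay below 16. Mutant was compared with control by limma 3.58.1 in R 4.3.3 (lmFit, eBayes, no covariate) over all genes, and the steps were tested on simulated data. Errors are limma's standard errors or intervals, and the number of arrays limits the precision. The members, lists, tests and alternatives were chosen with earlier results of these data known. All 10 members were named, with every called pathway gene up to the 12 of largest change and 6 fixed ones. Genes such as Flt1, Tek, Robo4, Eng, Emcn, Vwf, Aph1a, Spen, Ctbp2, Rgs5, Myocd, Kcnj8, Lmod1, Cidec, Retn, Pdgfra, Lum, Vim, Mcm2, Mcm3, Tyms, Mib2 and Neurl2 were named after their values were seen. So were the epithelial markers Krt18, Ehf, Elf3, Wnt7a, Krt7, Krt8 and Cldn4 and the macrophage markers. Alternatives were 18, covering scaling, probe set choice, filters, variance models, the methods' t-test, the paper's thresholds, the replicate block and arrays left out. No labels give a batch, and the background correction could not be varied. The ChIP-seq data were not used here.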

Additional observations from a re-analysis of the deposited data

How the results depend on the processing

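Over 18 alternatives no called Notch gene changed direction. Of 178 values for single members, 145 stayed on their side of the threshold without turning sign, 24 lost a call (all of Notch1, Jag1 or Hey1), 3 gained one (all of Notch4) and 6 turned sign without being called. These were Notch3 (0.03 with all arrays) at -0.018 with the mean of its probe sets, at -0.07 to 0.16 with each array left out and at -0.12 without control replicate 2 and mutant replicate 1, and Dll1 (0.09) at -0.062 to 0.21 with each array left out. With the floor of 16, Notch4 and Dll4 came to 0. With the mean of a gene's probe sets, 0 members and 3 other pathway genes were lower, and 954 genes were higher and 993 lower in all. With all probe sets adjusted together, 2 other pathway genes were lower, and 918 genes were higher and 1017 lower in all. With a floor of 16, which leaves many genes with no spread, 0 members were higher and 0 lower, 1 other pathway gene was higher and 1 lower, and 283 genes were higher and 243 lower in all. Array weights, at 2.94 for control array 1 and 0.665 to 0.999 for the others, gave 2 higher members. With them 1272 genes were higher and 1566 lower in all. The methods' t-test called 0 members higher and 0 lower after adjustment (2 and 4 at their unadjusted threshold, and 2 and 4 by limma at an unadjusted p under 0.05), 0 other pathway genes higher and 1 lower (3 and 12 unadjusted), and 105 genes higher and 40 lower in all (1924 and 2225 unadjusted). By limma at an unadjusted p under 0.05, 2192 of all 18193 genes were higher and 2627 lower. A fold change above 1.5 at an unadjusted p under 0.05 left 0 lower members, 2 lower pathway genes and 757 lower genes in all. Without control replicate 2 and mutant replicate 1, chosen after seeing the data, 2 members were higher and 1 lower, and 2 other pathway genes were lower. In all, 759 genes were then higher and 773 lower.

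With each array left out in turn, 0 to 1 members were higher and 0 to 2 lower, 1 to 2 other pathway genes were higher and 0 to 5 lower, and 480 to 971 genes were higher and 372 to 1139 lower in all. No member was called by limma without control array 1 or mutant array 2 or 3, and Jag1 and Hey1 were each called without 1 of the 6 arrays only (control replicate 3 and mutant replicate 1). With the replicate number as a block, 3 other pathway genes were lower in place of 6, of which Bhlhe40 was in both, 5 lost the call (Rbpj at adjusted p = 0.0534) and 2 gained it (Mib2 and Neurl2), the members' calls stood, and 966 genes were higher and 1085 lower in all. Whether the numbers pair the samples is not settled by these values. Same-numbered arrays had correlated deviations of 0.01, 0.21 and 0.16. Control replicates 2 and 3 correlated best with the mutant array of the same number, and control replicate 1 with mutant replicate 3 (0.11). Levels below an intensity of 16, as of Notch4 and Dll4, have no detection calls, so how far they stand above background is unknown.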
